A study of Homo sapiens with 6 samples.

Results

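The 10 genes described here encode the start of insulin-like growth factor (IGF) signaling and its secreted regulators. They are the ligand gene IGF1, the receptor genes IGF1R and INSR, the adaptor genes IRS1 and IRS2, and the binding protein genes IGFBP2, IGFBP3, IGFBP4, IGFBP5 and IGFBP6. They were chosen by gene symbol, each symbol matched 1 of the 58735 rows of the count table, and 9 of the 10 held enough reads to be tested. RNA was sequenced from RD cells, an established cell line of embryonal rhabdomyosarcoma (ERMS), a soft tissue tumor with a skeletal muscle phenotype. Control cultures (n = 3) had been transduced with lentiviral particles carrying scrambled shRNA, and knockdown cultures (n = 3) with particles carrying TAK1 shRNA. TAK1, encoded by MAP3K7, is a kinase that relays growth factor and cytokine signals. Only the first of the study's TAK1 shRNA sequences was used for sequencing, so what the loss of TAK1 does and what that 1 construct does cannot be told apart.

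IGF1 and IGF2 bind the IGF1 receptor, a tyrosine kinase that resembles the insulin receptor and forms hybrids with it. The active receptors phosphorylate the scaffold proteins IRS1 and IRS2, which recruit phosphatidylinositol 3-kinase (PI3K) and thereby switch on AKT, while other adaptors lead to RAS and the MAP kinases. The IGF-binding proteins (IGFBPs) are secreted, hold the ligands with high affinity and decide how much of them reaches a receptor. In the muscle lineage this system supports both the growth of myoblasts and their differentiation, and its overactivity is a known feature of rhabdomyosarcoma.

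Total counts per library ran from 28839898 to 34469323. Levels are given in CPM, a gene's count relative to all counts of its library, after scaling with the trimmed mean of M-values (TMM). A gene was called upregulated or downregulated where the log2 fold change reached 0.25 in either direction and the quasi-likelihood test of edgeR, adjusted over 15935 genes by the Benjamini-Hochberg method, gave a p under 0.05. By this rule 11.8% of all tested genes were called up and 11.3% were called down. With scaling by library size alone 62.9% of all calls were upward, against 51.0% with TMM. MAP3K7 itself stood at 77.3 ± 0.743 CPM in control and at 31.3 ± 2.00 CPM in knockdown cells (SD, n = 3), and its log2 fold change was -1.30 (edgeR adjusted p = 4.45e-14). Muscle lineage markers were present, with MYOD1 at 263 ± 8.03 CPM and DES at 340 ± 5.05 CPM in control cultures (SD, n = 3), whereas MYF5 had 0 counts in all libraries. Of the 6 muscle markers tested, MYOD1, MYOG and MYMK were called up and CHRNA1 was called down. Of the epithelial markers, CDH1 had 0 counts, EPCAM had 46 counts over all libraries, and KRT18 fell between control (56.1 ± 3.61 CPM) and knockdown cells (26.4 ± 1.10 CPM, SD, n = 3). The summed level of the 6 epithelial markers ranged from 56.9 to 63.0 CPM in control and from 27.7 to 31.2 CPM in knockdown cultures, and its part in the results below was not tested. Endothelial, leukocyte and adipocyte markers summed to at most 3.65, 0.453 and 0.606 CPM in any library.

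Of the 9 tested genes, 2 were upregulated in TAK1 knockdown cells (IGFBP5 and IGFBP3) and 2 were downregulated (IGFBP6 and IRS2). These are 22.2% in each direction, against 11.8% and 11.3% of all tested genes. The IRS2 call was lost in 10 of 14 alternatives. The remaining 5 tested genes were not called, although IGF1R, INSR and IGFBP2 had an adjusted p under 0.05 with a smaller change. The values of the groups did not overlap in 7 of the 9 tested genes, against 43.9% of all tested genes. The median log2 fold change was -0.096 over the 9 genes and 0.018 over all tested genes. In these bulk samples, fewer cells expressing a gene and less of its RNA in each cell cannot be told apart. The labels give no culture or passage for the replicates, so the p-values measure the spread between these libraries, which may be technical.

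**Figure D1:**
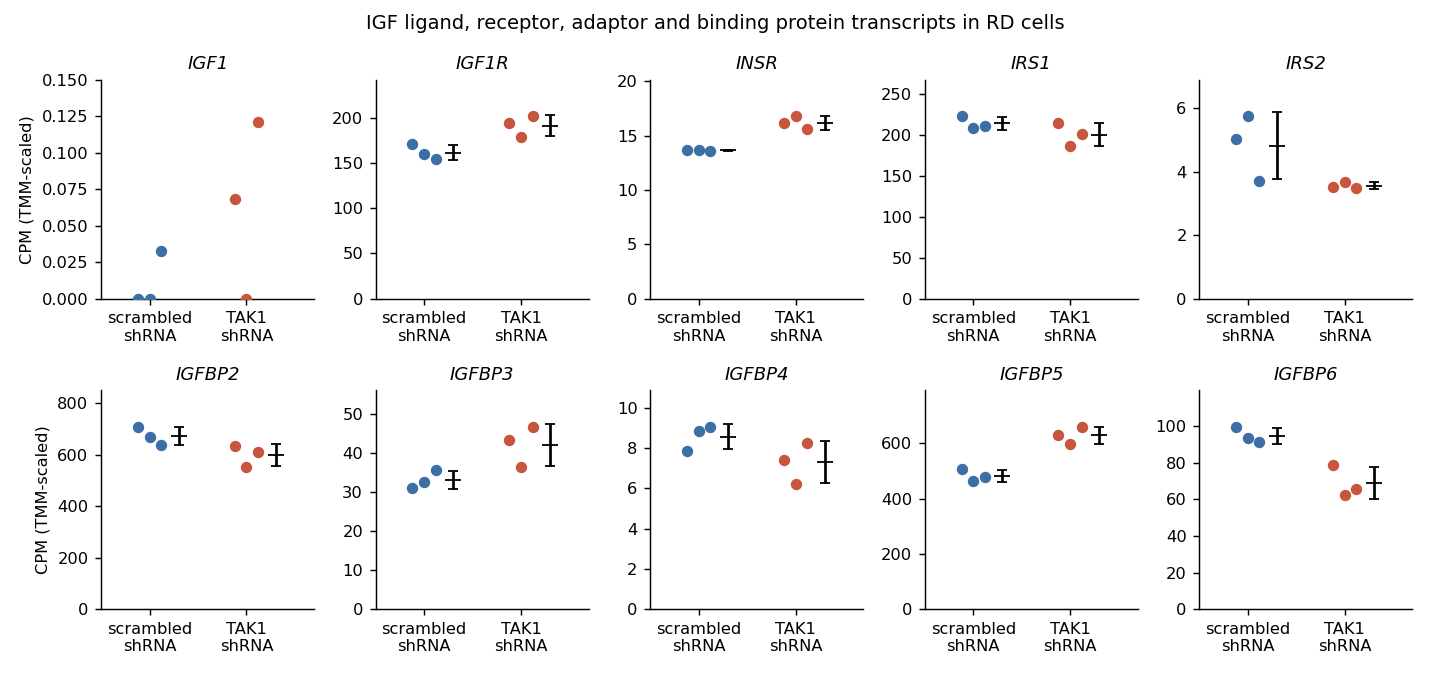
Level of each of the 10 genes in CPM (y axis, from 0, a separate scale for each gene) in the 3 scrambled shRNA and 3 TAK1 shRNA libraries. Points are libraries in the order of their replicate numbers, and bars show the mean ± SD, left out for IGF1, which had at most 4 counts. IGFBP5 and IGFBP3 sit higher and IGFBP6 sits lower in all 3 knockdown libraries.

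The level of each transcript per length was compared first, since a long transcript collects more reads. Over merged annotated exons, IGFBP2 was the most abundant of the 9 tested genes in control cells, at 142 CPM per kb. IGFBP5 followed at 74.7 and IGFBP6 at 70.4 CPM per kb, and the ranges of this pair overlapped across the control libraries. IRS1 stood at 21.4, IGF1R at 11.6, IGFBP3 at 7.23 and IGFBP4 at 3.89 CPM per kb. INSR, at 1.26 CPM per kb, and IRS2, at 0.592 CPM per kb, were the least abundant of the 9. By the same lengths the order was the same in knockdown cells, in which IGFBP5 reached 97.3 and IGFBP6 51.3 CPM per kb and no neighbors overlapped. The order depends on the length used, and it was not checked with the longest transcript of each gene. For IGFBP3 the merged exons hold 4569 bases and the longest transcript 2631, and for IGF1R they hold 13941 and 12235. Close neighbors in this order are therefore not firmly ranked.

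Among the ligands, IGF1 was at the limit of detection. The control libraries held 0, 0 and 1 counts on IGF1, and the knockdown libraries held 2, 0 and 4 counts. These are too few to show a difference, and the gene was not tested. A count of 0 still allows a level of up to 0.105, 0.0953 and 0.0849 CPM in control replicates 1 and 2 and knockdown replicate 2, an upper limit of 3 counts that covers counting error only. IGF1 (chromosome 12, 102395874 to 102481744, minus strand) also shares exon positions with HELLPAR on the opposite strand, and strand use was not stated for the counting. The gene of the other ligand, IGF2, has 2 rows in the count table, and only 1 of them is used here. By that row IGF2 was one of the abundant transcripts of these cells. It stood at 1389, 1252 and 1282 CPM in control libraries and at 1280, 932 and 1009 CPM in knockdown libraries, so that knockdown replicate 1 lay within the control range. The log2 fold change of IGF2 was -0.28 ± 0.071 (SE, edgeR adjusted p = 0.00274), and its exons overlap those of the read-through gene INS-IGF2, so its counts are less certain. Its scavenger receptor gene IGF2R, which takes up IGF2 without signaling through IRS proteins, had means of 514 and 515 CPM (edgeR adjusted p = 0.970).

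Both signaling receptors were slightly higher in TAK1 knockdown cells, by nearly the same factor. IGF1R, on the plus strand of chromosome 15 from 98648539 to 98964530 (GRCh38), encodes the receptor through which IGF1 and IGF2 signal. It had 170, 160 and 155 CPM in control libraries and 194, 179 and 202 CPM in knockdown libraries. The groups did not overlap, and the increase was 18.4%, a log2 fold change of 0.24 ± 0.052 (SE, edgeR adjusted p = 0.000659). This lay just under the fold threshold, and IGF1R was called upregulated without control replicate 1 (0.28) or knockdown replicate 2 (0.29), and with upper-quartile normalization (0.26) or library size alone (0.29). INSR, the insulin receptor gene (chromosome 19, 7112255 to 7294414, minus strand), had 13.7, 13.7 and 13.6 CPM in control libraries. In knockdown libraries it had 16.1, 16.8 and 15.6 CPM, above all controls. Its log2 fold change was 0.24 ± 0.087 (SE, edgeR adjusted p = 0.0341), and over its 14 alternatives the adjusted p ran from 0.0125 to 0.109 and was at or over 0.05 in 6 of them.

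IGF1R transcripts outnumbered INSR transcripts in all 6 libraries. Per kb of exon, the ratio of IGF1R to INSR was 9.19 ± 0.443 in control and 9.22 ± 0.907 in knockdown cells (SD, n = 3). The difference of the log2 ratio was 0.0011 (two-sided exact permutation p = 1.0, where 0.1 is the smallest that 3 against 3 allows). With each library left out in turn it ran from -0.065 to 0.078. This test cannot show that the receptors changed alike, only that a difference between them was not detectable with these libraries.

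The adaptors IRS1 and IRS2 were expressed at very different levels. IRS1 (chromosome 2, 226731312 to 226799820, minus strand) had 223, 209 and 211 CPM in control libraries and 214, 187 and 201 CPM in knockdown libraries. The groups overlapped through knockdown replicate 1, and the log2 fold change was -0.096 with a 95% interval from -0.20 to 0.0094 (edgeR adjusted p = 0.160). IRS2 (chromosome 13, 109752695 to 109786583, minus strand) rested on between 103 and 181 counts per library. It reached 5.03, 5.75 and 3.70 CPM in control libraries and 3.52, 3.68 and 3.48 CPM in knockdown libraries. The third control library lay next to the knockdown libraries, and the other two lay well above them. The log2 fold change was -0.44 ± 0.17 (SE, edgeR adjusted p = 0.0491), and the call was lost in 10 of 14 alternatives, among them DESeq2 (adjusted p = 0.0645). Leaving out control replicate 2 gave -0.29 (edgeR adjusted p = 0.293), and leaving out control replicate 3 gave -0.60 (edgeR adjusted p = 0.0107). An unnamed gene on the opposite strand overlaps the IRS2 exons. The ratio of IRS1 to IRS2 per kb was 37.4 ± 8.51 in control and 46.0 ± 4.22 in knockdown cells (SD, n = 3), a log2 difference of 0.32 (two-sided exact permutation p = 0.2). It was 0.16 without control replicate 2 and 0.49 without control replicate 3.

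**Figure D2:**
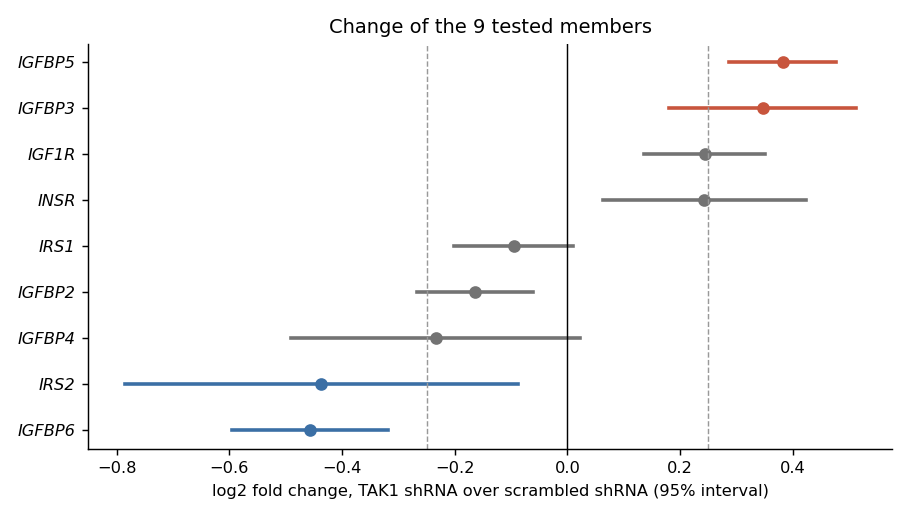
Log2 fold change of the 9 tested genes, TAK1 shRNA over scrambled shRNA (x axis), with bars for the 95% interval of the edgeR fit. Red marks upregulated and blue downregulated genes, gray marks genes not called, and dashed lines mark the fold threshold of 0.25 in either direction. IGF1R and INSR, both at 0.24, lie just inside the upper line.

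The binding proteins held 3 of the 4 called changes, and these went in opposite directions. IGFBP5, the binding protein most closely tied to the muscle lineage, rises when normal myoblasts differentiate. Its gene spans chromosome 2 from 216672105 to 216695549 on the minus strand. It had 508, 465 and 477 CPM in control libraries and 632, 597 and 659 CPM in knockdown libraries. The lowest knockdown library exceeded the highest control by more than the controls differed among themselves. The increase was 30.3%, a log2 fold change of 0.38 ± 0.046 (SE, edgeR adjusted p = 4.43e-07). IGFBP5 was called under all 14 alternatives, with log2 fold changes from 0.34 to 0.43. Its exons overlap those of DIRC3-AS1 on the opposite strand.

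IGFBP3, the main carrier of IGFs in the blood, forms a large complex with the acid-labile subunit. It was upregulated from a much lower level, from a gene on chromosome 7 (45912245 to 45921874, minus strand). It had 31.0, 32.6 and 35.5 CPM in control libraries and 43.2, 36.3 and 46.7 CPM in knockdown libraries. Knockdown replicate 2 lay close to the highest control, and the groups did not overlap. The log2 fold change was 0.35 ± 0.080 (SE, edgeR adjusted p = 0.00146), and it stayed called in all 14 alternatives with values from 0.25 to 0.44. IGFALS, the gene for the acid-labile subunit itself, had only 44 counts over all 6 libraries.

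IGFBP6, which prefers IGF2 over IGF1, was downregulated. Its gene spans chromosome 12 from 53097436 to 53102345 on the plus strand. It had 99.5, 93.4 and 91.1 CPM in control libraries and 79.0, 62.5 and 65.7 CPM in knockdown libraries. All 3 knockdown libraries lay below all controls, with replicate 1 the nearest to them. The level fell by 27.1%, a log2 fold change of -0.46 ± 0.067 (SE, edgeR adjusted p = 7.77e-06). This was the largest called change of the 9 genes, and it ranked 2876 among the 15935 genes tested by absolute log2 fold change. Under the 14 alternatives it ran from -0.56 to -0.39 and stayed called.

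The genes whose levels followed those of IGFBP6 most closely over the 6 libraries were ANKS1A (r = 0.9989), SERPINH1 (r = 0.9984) and ALPL (r = 0.9979). This is Pearson's correlation of log2(CPM + 0.1) among the 13476 genes that averaged 1 CPM or more. The points fall into both treatment groups, and 323 of these genes had an r of at least 0.95, so it describes these libraries only. The log2 fold changes of ANKS1A, SERPINH1 and ALPL were -0.097, -0.18 and -0.40.

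IGFBP2 and IGFBP4 changed less. IGFBP2, a binding protein typical of fetal tissue and of many tumors (chromosome 2, 216632828 to 216664436, plus strand), had 708, 670 and 637 CPM in control libraries and 635, 553 and 611 CPM in knockdown libraries. The groups came within a few CPM of each other without overlapping. Its log2 fold change of -0.16 ± 0.050 (SE, edgeR adjusted p = 0.0123) was below the fold threshold, and the adjusted p was at or over 0.05 in 3 of 14 alternatives. IGFBP4, which holds IGFs back from receptors until it is cleaved (chromosome 17, 40443450 to 40457725, plus strand), rested on between 217 and 279 counts per library. It had 7.84, 8.83 and 9.05 CPM in control libraries and 7.42, 6.23 and 8.27 CPM in knockdown libraries. These ranges overlapped, and the log2 fold change was -0.23 with a 95% interval from -0.49 to 0.023 (edgeR adjusted p = 0.161). It was -0.13 without knockdown replicate 2 and -0.35 without knockdown replicate 3, and IGFBP4 was not called in either case.

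The summed level of the 5 binding proteins showed no detectable difference between the groups, while their proportions shifted. The sum of IGFBP2 to IGFBP6 was 312, 293 and 288 CPM per kb in control libraries and 303, 266 and 293 CPM per kb in knockdown libraries. These ranges overlapped (two-sided exact permutation p = 0.5). With 3 libraries against 3, this test cannot show that the sum was unchanged. IGFBP5 made up 25.2%, 24.5% and 25.6% of the sum in control libraries and 32.2%, 34.7% and 34.7% in knockdown libraries. IGFBP6 went the other way, from 23.7%, 23.6% and 23.5% to 19.4%, 17.5% and 16.6%. The share of IGFBP2 was 47.6% ± 0.731 in control and 43.9% ± 0.202 in knockdown cells (SD, n = 3). That of IGFBP3 was 2.44% ± 0.265 and 3.20% ± 0.255, and that of IGFBP4 was 1.31% ± 0.151 and 1.15% ± 0.113 (SD, n = 3). The shares of IGFBP2, IGFBP3, IGFBP5 and IGFBP6 separated the groups completely (exact permutation p = 0.1 for each, two-sided, the lowest value open to this design), and those of IGFBP4 did not (exact permutation p = 0.2). The 5 shares sum to the whole in each library, so they are not independent of each other. Their size also depends on the exon lengths used, which the SD between libraries does not cover. With the longest transcript as length, the IGFBP2 share differed by -3.45 percentage points between the groups, against -3.61 with merged exons. Only the test of the IGFBP2 share was planned, and the shares rest on the same counts as the calls above.

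**Figure D3:**
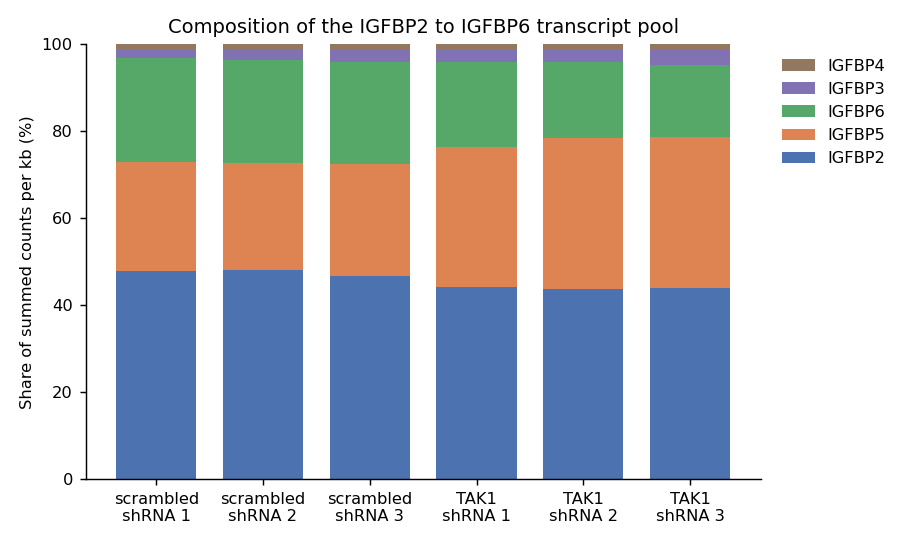
Share of each binding protein in the summed counts per kb of IGFBP2 to IGFBP6 (y axis, percent) in each of the 6 libraries. The IGFBP5 segment is at most 25.6% in the control libraries and at least 32.2% in the knockdown libraries, and the IGFBP6 segment is smaller in all 3 knockdown libraries.

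IGFBP2 and IGFBP5 are neighbors on chromosome 2, where they point toward each other with 7668 bases and 0 annotated genes between their ends. Their levels nevertheless differed in direction. The ratio of IGFBP5 to IGFBP2 per kb was 0.528 ± 0.0198 in control and 0.771 ± 0.0361 in knockdown cells (SD, n = 3). The log2 ratio differed by 0.55 (two-sided exact permutation p = 0.1, the smallest possible), and by 0.52 to 0.59 with each library left out. This ratio was chosen after the values were seen.

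The promoter windows of the 10 genes were searched for 4 short motifs in RefSeq sequence (GRCh38.p14), from 250 bases before to 50 bases after each RefSeq start. This gave 13 windows, since IGF1 and IGFBP2 have several starts. The TEAD motif GGAATG, searched on both strands like the other motifs, was found in 3 of the 13 windows, those of IGFBP5, IGFBP6 and IRS1, and in 14% of the 35116 promoters of all genes. TEAD factors are the DNA-binding partners of YAP1, whose signaling the study examined. The AP-1 motif TGANTCA was found in 0 of the 13 windows and in 7.71% of all promoters. The MyoD-type E-box CAGCTG was found in 3 windows (one of IGF1, and those of IGFBP6 and INSR) and in 17.9% of all promoters. The FOXO motif GTAAACA was found in 2 windows (the other of IGF1, and that of IGFBP6) and in 3.42% of all promoters. Such a match describes the letters only.

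The TEAD letters are shown because they occur in 1 gene that rose, 1 that fell and 1 that was not called. Each stretch of 30 bases is given on the gene's own strand from 5′ to 3′, with the TEAD letters in capitals. Counted from the RefSeq start, the first TEAD letter is at -235 for IGFBP5 (chr2:216695767-216695796, minus strand), at -101 for IGFBP6 (chr12:53097554-53097583, plus strand) and at -33 for IRS1 (chr2:226799836-226799865, minus strand), and none of these matches overlaps another motif. For IGFBP6 the RefSeq start lies downstream of the GENCODE gene start given above, so its TEAD letters fall within the GENCODE gene span.
IGFBP5: gcccctttcttaCATTCCggggggaggagg
IGFBP6: cacccagtttagGGAATGcccctgccctct
IRS1: cgggctcggcccGGAATGtagagacccggg

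For IGFBP5, the binding protein with the largest increase, the 250 bases before its RefSeq start (chr2:216695550-216695799, minus strand, GRCh38.p14) are given in full, again with the TEAD letters in capitals.
IGFBP5 upstream: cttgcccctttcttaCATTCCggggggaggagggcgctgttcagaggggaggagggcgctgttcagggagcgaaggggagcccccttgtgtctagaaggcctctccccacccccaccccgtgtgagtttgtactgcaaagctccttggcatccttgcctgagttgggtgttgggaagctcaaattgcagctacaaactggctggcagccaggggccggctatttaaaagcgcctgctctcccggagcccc

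The other genes of the pathway were read from a list of 74 genes, of which 64 were tested. In this list 10 genes were upregulated and 11 were downregulated, shares of 15.6% and 17.2% of those tested against 11.8% and 11.3% of all genes, and the median log2 fold change was 0.0004. The genes described below are mainly from the 12 called genes with the largest absolute change among those whose groups did not overlap.

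**Figure D4:**
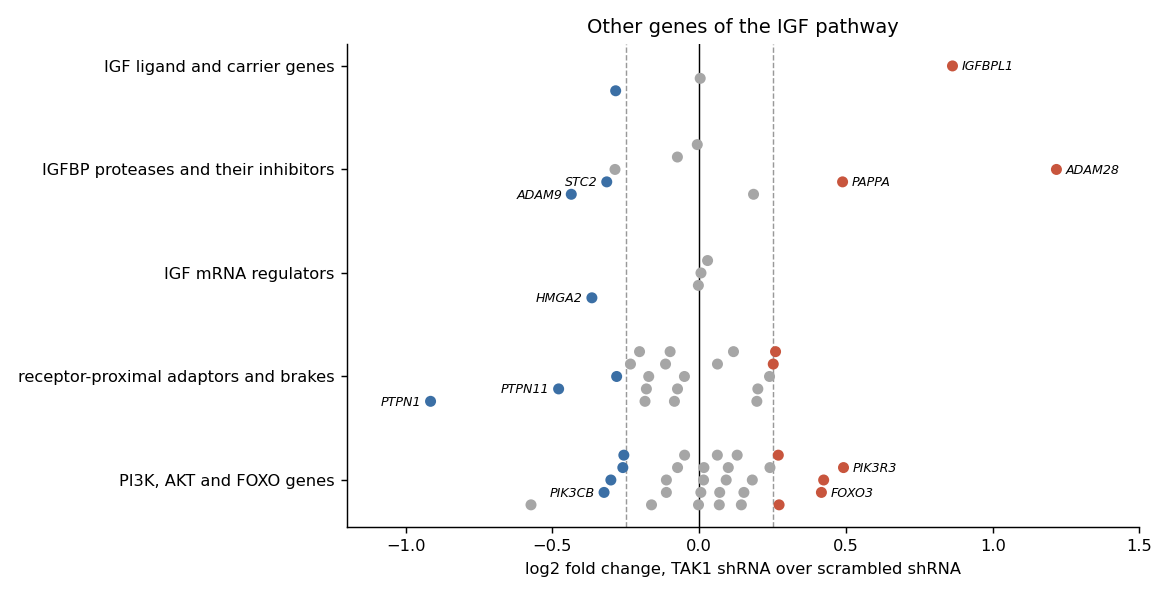
Log2 fold change, TAK1 shRNA over scrambled shRNA (x axis), of the 64 tested genes of the IGF pathway outside the 10, by role (rows, with points spread vertically only for visibility). Red marks upregulated and blue downregulated genes, gray marks genes not called, dashed lines mark the fold threshold of 0.25, and the genes described by name from the 12 with the largest change are labeled.

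Among the remaining ligand and carrier genes, 1 of the 3 tested was upregulated and 1, IGF2, was downregulated. Each is 33.3% of only 3 genes, against 11.8% and 11.3% of all tested genes. IGFBPL1, which encodes a protein related to the binding proteins, rose between control (12.2 ± 1.00 CPM) and knockdown cells (22.2 ± 2.53 CPM, SD, n = 3), and its log2 fold change was 0.86 ± 0.096 (SE, edgeR adjusted p = 1.15e-07). IGFBP1, the neighbor of IGFBP3 on chromosome 7 at a distance of 18584 bases, had 0 counts in all libraries, and IGFBP7 had 7 counts in all.

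Proteases that release IGFs by cutting the binding proteins, and their inhibitors, were called in both directions, with 2 of 8 tested genes up and 2 down. This is 25% each way, against 11.8% and 11.3% of all tested genes. PAPPA, the metalloprotease that cleaves IGFBP4 and IGFBP5, rose between control (31.2 ± 2.59 CPM) and knockdown cells (43.8 ± 2.99 CPM, SD, n = 3), and its log2 fold change was 0.49 ± 0.073 (SE, edgeR adjusted p = 8.69e-06). STC2, which encodes a secreted inhibitor of PAPPA, fell between control (703 ± 20.8 CPM) and knockdown cells (565 ± 24.6 CPM, SD, n = 3), and its log2 fold change was -0.32 ± 0.044 (SE, edgeR adjusted p = 3.18e-06). The membrane protease genes ADAM28 and ADAM9 moved apart, with log2 fold changes of 1.22 and -0.44, and ADAM28 did so from only 2.33 CPM in control cells. STC1 and PAPPA2 gave no call, the first with an edgeR adjusted p of 0.440 and the second with 32 counts in all and no test.

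Of the 20 tested adaptors and brakes next to the receptors, 2 were called up (10%) and 3 down (15%). The shares of all tested genes were 11.8% and 11.3%, so this list lay near them. PTPN1, a tyrosine phosphatase that switches off the insulin and IGF1 receptors, had 95.8, 89.3 and 91.5 CPM in control libraries and 52.1, 46.7 and 47.9 CPM in knockdown libraries. Its log2 fold change of -0.92 ± 0.057 (SE, edgeR adjusted p = 6e-12) compares with -0.46 for IGFBP6. PTPN11, the phosphatase that carries receptor signals toward RAS, fell between control (166 ± 2.28 CPM) and knockdown cells (119 ± 6.10 CPM, SD, n = 3), and its log2 fold change was -0.48. The other calls of this list were NEDD4, a ubiquitin ligase gene (-0.28), the adaptor gene SH2B1 (0.26) and SOS1, which encodes an exchange factor for RAS (0.25). PTPN1 and PTPN11 share exon positions with a gene on the opposite strand, for PTPN11 the ribosomal protein gene RPL6. The same holds for ADAM9, PAPPA and HMGA2, and PIK3R3 overlaps the read-through gene P3R3URF-PIK3R3 on its own strand.

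The 29 tested PI3K, AKT and FOXO genes held 5 upward (17.2%) and 4 downward calls (13.8%), against 11.8% and 11.3% of all tested genes. PIK3R3, a regulatory subunit of PI3K, rose by 0.49 and FOXO3, a transcription factor that AKT keeps out of the nucleus, by 0.42 on the log2 scale. The catalytic subunit gene PIK3CB had a log2 fold change of -0.32 and lost its call without control replicate 1 or 3 (edgeR adjusted p of at most 0.0528). PIK3CA, another catalytic subunit gene, was called up, from a mean of 42.8 CPM in control to 51.6 CPM in knockdown cells. Its log2 fold change was 0.27 (edgeR adjusted p = 0.00282). AKT1 and AKT2 were not called, with log2 fold changes of 0.14 (edgeR adjusted p = 0.0304) and 0.092 (edgeR adjusted p = 0.212). For AKT1 all knockdown libraries lay above all controls, and only the fold threshold was missed. For AKT2 the groups overlapped. Among the 4 genes that bind or regulate IGF transcripts, HMGA2 fell between control (715 ± 15.0 CPM) and knockdown cells (555 ± 5.41 CPM, SD, n = 3), and its log2 fold change was -0.37 ± 0.041 (SE, edgeR adjusted p = 1.12e-07). IGF2BP1, IGF2BP2 and IGF2BP3, which bind the IGF2 transcript, had log2 fold changes of 0.028, -0.0029 and 0.0059 and edgeR adjusted p-values of at least 0.687.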

How the data were processed

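Poly(A)-enriched RNA of RD cells was sequenced as paired-end reads. Per the submitters' processing notes and the methods, the authors used CASAVA for base calling, filtered reads for adaptors and low quality, and mapped them with STAR to GRCh38 (hg38). They deposited raw counts of reads per gene, without normalization. The counting program, its annotation, strand use and the handling of multi-mapping reads are not given in the sources used here.

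Samples were grouped by their titles, and 0 columns were left unused. Counts were filtered with edgeR's default expression filter, scaled by TMM and tested with edgeR 4.0.16 (quasi-likelihood, R 4.3.3) over all 15935 genes that passed. A standard error (SE) was taken as the absolute log2 fold change over the root of F. CPM per kb used merged exons of GENCODE 44. Single values were compared with exact permutation tests (scipy 1.17.1). Alternatives were DESeq2 1.42.0, limma voom 3.58.1, other normalizations, other filters, other fold thresholds, the replicate number as a block, and the omission of each library in turn. The fits were tested on simulated data. Replicates of a group differed by more than counting noise (chi-square per degree of freedom from 2.88 to 8.74). The genes and lists were chosen with earlier results of these data known. Genes named besides the 10 are MAP3K7, the 12 called pathway genes with the largest change and no overlap of groups (1 of them is not reported here), calls in lists with 3 or fewer, and the 3 genes most like the called member with the largest change. Others named (IGF2R, IGFBP1, IGFBP7, IGFALS, STC1, PAPPA2, PIK3CA, AKT1, AKT2 and the IGF2BP genes) were added after their values were seen. The marker lists were skeletal muscle, epithelial, endothelial, leukocyte and adipocyte. The planned search of protein sequences was not run, since protein sequences were not used here.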

Additional observations from a re-analysis of the deposited data

How the results depend on the processing

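Of 308 log2 fold changes for 22 genes (the 9 tested members, MAP3K7 and the 12 pathway genes with the largest change) under the alternatives, 289 kept their direction and whether the gene was called, 12 lost their call (10 of them IRS2, 2 of them PIK3CB), 7 gained one (4 of them IGF1R, 3 of them INSR) and 0 changed sign. Without a change of call, the adjusted p of INSR, IGFBP2 and IRS1 crossed 0.05 under some alternatives. The upregulated members numbered 2, and 4 with upper-quartile normalization, library size alone or no fold threshold. The downregulated members numbered 2, 3 with no fold threshold, and 1 with DESeq2, limma voom, upper-quartile normalization, library size alone or a minimum of 10 counts in every sample. At a fold threshold of 0.5, 0 members passed in either direction. With each library left out, 2 to 3 members were up and 1 to 2 were down. The pathway genes numbered 10 up and 11 down, 2 and 1 at a fold threshold of 0.5, 16 up and 16 down with no fold threshold, and 12 up and 7 down with library size alone. All tested genes numbered 1879 up and 1805 down, 735 and 680 at a fold threshold of 0.5, and 2569 up and 2734 down with no fold threshold. The summed level of the binding proteins was lower by 10.3 CPM per kb in knockdown cells, and between lower by 18.0 and higher by 0.456 with each library left out, the latter without knockdown replicate 2. The cause of these shifts was not tested.

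The replicate numbers are shared by the groups, but same-numbered libraries deviated from their group means with correlations of only 0.037, 0.036 and 0.017, so they were not taken as pairs. Differently numbered libraries gave correlations from -0.0524 to 0.019. With the replicate number as a block, 2 members were up and 2 were down, as without it, and 1942 and 1848 of all genes were called. The block lowered the edgeR adjusted p of IRS1 from 0.160 to 0.0457 and that of IGFBP2 from 0.0123 to 0.000529, and both stayed under the fold threshold. Depth limits IGF1, with at most 4 counts.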
